A study of Mus musculus with 12 samples.

Results

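The AP-1 family was examined in mouse neural progenitor cells (NPCs) through 8 genes, chosen by name: Fos, Fosb, Fosl1 and Fosl2 of the Fos family, Jun, Junb and Jund of the Jun family, and Atf3. They are 8 of 21154 named genes on the arrays used, and 9 of 55681 probes, since Fosl2 had 2 probes and every other member had 1. The NPCs had been differentiated in culture from mouse pluripotent stem cells and were kept in medium with epidermal growth factor and basic fibroblast growth factor, both of which act on receptors upstream of AP-1. All groups received a retrovirus, and the labels do not say which of the study's NPC lines was used. One of those lines, N31, carries doxycycline-inducible reprogramming factors. In the overexpression experiment the virus carried Mkl1, Srf or, as control, the fluorescent protein gene EGFP. In the knockdown experiment it expressed short hairpin RNAs, with shEGFP as control and shActb_1 and shActb_2 directed at Actb, which encodes β-actin. Each of the 6 groups had 2 arrays, which the study describes for the Actb knockdown as technical duplicates, so the tests measure array-to-array error and not the spread between cultures.

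AP-1 is a pair of basic leucine zipper proteins bound to DNA. Jun proteins pair with each other or with a Fos protein, whereas Fos proteins need a Jun partner, and Atf3, a stress-induced relative, pairs with Jun proteins and often represses. Fos, Fosb, Junb and Jun are immediate-early genes that growth factors switch on within minutes through MAP kinases. Serum response factor, the product of Srf, was named for its site upstream of Fos, the serum response element. There it acts with ternary complex factors, whereas at cytoskeletal genes it acts with Mkl1, a cofactor that monomeric actin keeps out of the nucleus. The comparisons asked which of these genes differed when Srf or Mkl1 was introduced and when β-actin was lowered.

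The promoters of Fos and Jun are shown because these genes carried the largest change and the most widely shared change. The sequences run 5′ to 3′ from 100 bases before the RefSeq start site to the base before it, from RefSeq on GRCm38.p6, and capitals mark matches to TGACG (the core of the cyclic AMP response element), TGACATCA (an AP-1-like element known from Jun), TATAAA and CCAAT.
Fos, chr12:85473790-85473889, plus strand: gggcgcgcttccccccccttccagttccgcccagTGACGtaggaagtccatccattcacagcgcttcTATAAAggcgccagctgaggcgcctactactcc
Jun, chr4:95052223-95052322, minus strand: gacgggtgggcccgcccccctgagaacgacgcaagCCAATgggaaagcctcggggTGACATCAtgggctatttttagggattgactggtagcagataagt
In Fos the TGACG shown began at position -66 and TATAAA at -33 from the start site, and in Jun CCAAT began at -65 and TGACATCA at -45. On both strands, TGACG was found in 20.8% of 32851 mouse promoter windows (250 bases before to 50 after the start), TGACATCA in 3.62%, TATAAA in 13.6% and CCAAT in 37.4%. An entry was found for 7 of the 8 members (all but Fosl1), and 4 of them held TGACG (Fos, Fosb, Junb and Atf3). The CArG box, the sequence that Srf binds, was also sought in these windows and found in 0 members, beside 1.63% of all windows. No member window held the AP-1 site TGANTCA (N for any base) or the full element TGACGTCA, found in 7.81% and 1.79% of all windows. The serum response element of Fos is known to lie further upstream than the stretch shown. These matches are a description of the letters and were not tied to any change below.

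All 9 member probes were well above background on all 12 arrays and none was saturated. Levels are log2 signals minus the 75th percentile of the array, so a level of 0 lies at that percentile, and levels of different probes cannot be compared with each other. The arrays had 59.3% to 72.5% of probes well above background. Of 10 NPC markers, 9 were above background on every array. The labels were checked on the targeted genes. The Actb probe was lower by 0.53 and 0.65 on the log2 scale with the first and second hairpin. The 2 Mkl1 probes (Mrtfa in the reference) were 0.20 and 0.17 higher on the arrays labelled Mkl1, neither past the test. Both Srf probes went against the label: they were lower by 2.46 and 1.40 on the arrays labelled Srf than in EGFP. The study's Srf virus carried the reading frame only, and where the probes lie relative to it was not determined, so the words "arrays labelled Srf" are used below and every direction from them carries this limit. EGFP, Mkl1 and Srf arrays shared a slide, with EGFP in another row of it; shEGFP and shActb_1 shared another; and shActb_2 lay on a slide of its own, so slide and hairpin cannot be told apart.

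**Figure D1:**
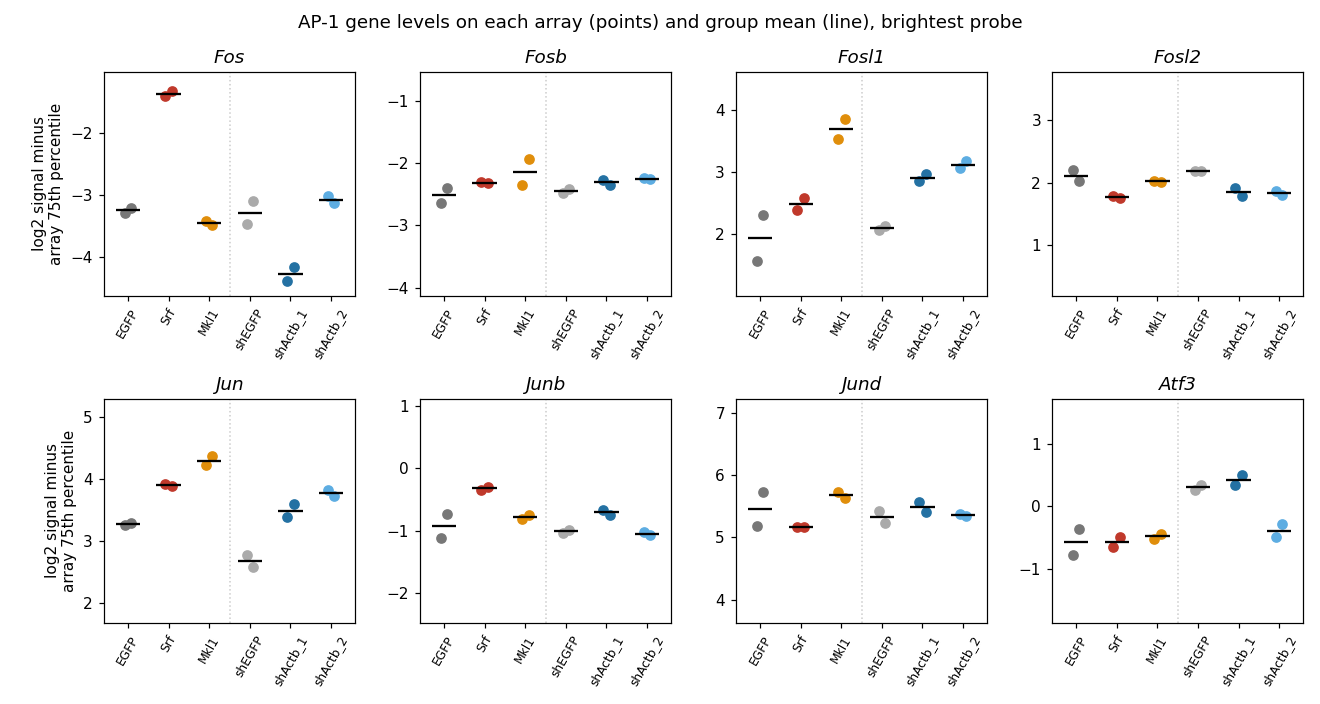
Levels of the 8 AP-1 genes (y axis, log2 signal minus the array's 75th percentile; every panel spans the same range of log2 units) in the 6 groups (x axis). Points are the 2 arrays of a group and lines their mean; Fos stands highest on the arrays labelled Srf, Fosl1 and Jun on those labelled Mkl1, and Atf3 in shEGFP and shActb_1.

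Fos, the founding member of the family, was the AP-1 gene with the largest difference on the arrays labelled Srf. Its level was -1.41 and -1.33 on those arrays, -3.29 and -3.21 in EGFP, and -3.41 and -3.49 on the arrays labelled Mkl1. In the knockdown experiment it was -3.47 and -3.10 in shEGFP, -4.39 and -4.16 in shActb_1, and -3.02 and -3.14 in shActb_2. Both arrays labelled Srf thus stood above the other 10 arrays, and both shActb_1 arrays below them. Fos rose 3.68-fold on the arrays labelled Srf (log2 fold change 1.88, SE 0.13, adjusted p = 8.54e-05, limma) and fell by 0.99 on the log2 scale with shActb_1 (SE 0.13, adjusted p = 0.00401). Against its control it differed by -0.20 (95% interval -0.50 to 0.10) with Mkl1 and by 0.21 (-0.09 to 0.50) with shActb_2, neither past the test. In the order of the group means, only the steps from shActb_1 to Mkl1 and from shActb_2 to Srf passed the test (adjusted p = 0.00326 and 9.35e-05), both across slides. The Fos probe was printed at 10 spots per array, of which 9 or 10 were used, and the SD between them was 0.06 to 0.19. The probe was dim, with a mean signal of 49.95 to 349, and with the normexp background correction the Fos change was 1.32 on the arrays labelled Srf and -0.51 with shActb_1. With the spread taken from the compared arrays only, the fall with shActb_1 missed the threshold (adjusted p = 0.0732).

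Fosl1 encodes Fra-1, a Fos protein without a transactivation domain of its own and a slower, longer-lasting partner of Jun. Its level was 1.57 and 2.32 in EGFP, 3.53 and 3.85 on the arrays labelled Mkl1, and 2.40 and 2.59 on those labelled Srf. It was 2.08 and 2.13 in shEGFP, 2.85 and 2.97 in shActb_1, and 3.06 and 3.17 in shActb_2. Every treated array was above the arrays of its own control, and the EGFP arrays differed from each other by more than any other pair. Fosl1 rose 3.36-fold with Mkl1 (log2 fold change 1.75, SE 0.23, adjusted p = 0.00247) and 2.02-fold with shActb_2 (1.02, SE 0.23, adjusted p = 0.00992). The differences of 0.81 with shActb_1 (SE 0.23, adjusted p = 0.0698) and 0.55 for Srf against EGFP (SE 0.23, adjusted p = 0.117) did not pass. No neighbouring means in its order, which ran from EGFP and shEGFP through Srf and the hairpins to Mkl1, differed past the test. With the spread taken from the compared arrays only, the Mkl1 rise missed the threshold (adjusted p = 0.0923) and the shActb_1 difference passed it (adjusted p = 0.0363), as it did under 6 of 16 alternatives in all. The arrays that decided calls were shEGFP replicate 1 and shActb_2 replicate 2, without which the shActb_2 value was 0.99 and 0.96 (adjusted p = 0.0575 and 0.0663), and EGFP replicate 2, without which the Srf value was 0.93 (adjusted p = 0.0058). Without EGFP replicate 1 the Srf value was 0.17 (adjusted p = 0.456).

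Jun, the main activating partner of Fos proteins, was the only member that rose in all 4 comparisons with a control. Its level was 3.26 and 3.29 in EGFP, 3.91 and 3.88 on the arrays labelled Srf, and 4.22 and 4.36 on those labelled Mkl1. It was 2.78 and 2.58 in shEGFP, 3.38 and 3.59 in shActb_1, and 3.82 and 3.73 in shActb_2. No treated array overlapped with its control. The log2 fold change was 0.63 on the arrays labelled Srf (SE 0.10, adjusted p = 0.00345), 1.02 with Mkl1 (SE 0.10, adjusted p = 0.000858), 0.81 with shActb_1 (SE 0.10, adjusted p = 0.00313) and 1.09 with shActb_2 (SE 0.10, adjusted p = 0.000303). The comparisons within each experiment shared their control arrays. The controls themselves differed, with shEGFP 0.59 lower than EGFP (adjusted p = 0.00465, on different slides). When the spread was taken from the compared arrays only, the rises with Mkl1 and shActb_1 missed the threshold (adjusted p = 0.0666 and 0.0621).

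Junb, an immediate-early Jun protein that often restrains Jun, was -0.34 and -0.29 on the arrays labelled Srf against -1.11 and -0.73 in EGFP. Both were above every other array of the study. It rose by 0.61 on the log2 scale there (SE 0.11, adjusted p = 0.00734). Without Srf replicate 2 the value was 0.58 and missed the threshold (adjusted p = 0.0529), as it did with the spread of the compared arrays only (adjusted p = 0.118). The other Junb differences were 0.14 with Mkl1, 0.31 with shActb_1 and -0.04 with shActb_2, none past the test. Jund, the constitutively made Jun protein, lay between 5.17 and 5.73 on all arrays and passed in no comparison with a control, its differences being -0.29, 0.22, 0.16 and 0.03 for Srf, Mkl1, shActb_1 and shActb_2. The Srf difference of Jund was -0.56 without EGFP replicate 1 (adjusted p = 0.0131) and -0.02 without EGFP replicate 2 (adjusted p = 0.883). The Mkl1 differences of Jund and Junb were 0.49 and 0.33 without EGFP replicate 2 (adjusted p = 0.016 and 0.0122), and -0.04 and -0.05 without EGFP replicate 1 (adjusted p = 0.816 and 0.67).

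Atf3, induced by many stresses, separated the hairpins. Its level was 0.26 and 0.35 in shEGFP, 0.35 and 0.50 in shActb_1, and -0.49 and -0.29 in shActb_2. It was -0.78 and -0.37 in EGFP, -0.65 and -0.49 on the arrays labelled Srf, and -0.52 and -0.45 on those labelled Mkl1. The shEGFP and shActb_1 arrays, which shared a slide, were above all 8 others. Atf3 fell by 0.70 on the log2 scale with shActb_2 (SE 0.14, adjusted p = 0.00692), and the other differences were 0.12 with shActb_1, 0.01 for Srf and 0.09 with Mkl1, not past the test. shEGFP itself was 0.88 above EGFP (adjusted p = 0.004), also across slides.

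The remaining members moved little. Fosl2, which encodes Fra-2, was read by its brighter probe at 1.76 to 2.21 over the 12 arrays, and this probe fell by 0.34 on the arrays labelled Srf (adjusted p = 0.0174), by 0.35 with shActb_1 (adjusted p = 0.0347) and by 0.36 with shActb_2 (adjusted p = 0.00954). Its other, dimmer probe gave -0.49, 0.14 and 0.21, none past the test, so the probes disagreed in sign for both hairpins. Without EGFP replicate 1 or either Srf array, any of the 4 arrays of the shActb_1 comparison, or shEGFP replicate 1 or shActb_2 replicate 2, the falls lost the call (adjusted p = 0.0526 to 0.195). Fosb, an immediate-early gene close to Fos, lay between -2.64 and -1.94 on all arrays and passed in no comparison, with differences of 0.20, 0.37, 0.14 and 0.19 for Srf, Mkl1, shActb_1 and shActb_2. Without Mkl1 replicate 1 its Mkl1 difference was 0.58 and passed (adjusted p = 0.0247), and without Mkl1 replicate 2 it was 0.16 (adjusted p = 0.448).

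**Figure D2:**
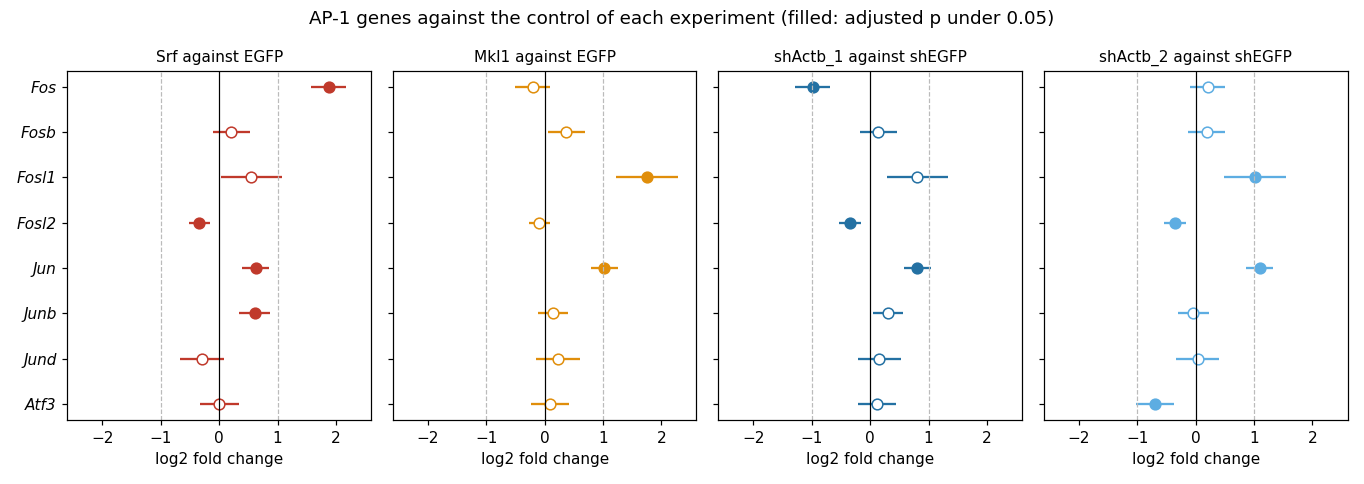
Log2 fold change of each AP-1 gene (x axis) against the control of its experiment, with the 95% interval of the limma fit; dashed lines mark 2-fold. Filled points passed the test: Jun is filled in every panel, Fos rose on the arrays labelled Srf (1.88) and fell with shActb_1 (-0.99), and Fosl1 was filled with Mkl1 (1.75) and shActb_2 (1.02).

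Counted over the family, 4 of 8 members passed on the arrays labelled Srf (3 higher, 1 lower), where 25.5% of 35552 probes did (12.9% higher, 12.5% lower). With Mkl1 2 of 8 passed, both higher, against 20.8% of probes (12.5% higher, 8.34% lower). With shActb_1 3 of 8 passed (1 higher, 2 lower) against 9.41% of probes (5.29% higher, 4.12% lower). With shActb_2 4 of 8 passed (2 higher, 2 lower) against 40.3% of probes (21.7% higher, 18.6% lower). With Mkl1 and shActb_2 the members' share lay near that of all probes. Changes that were also over 2-fold numbered 1, 2, 0 and 2 members in that order, where 5.54%, 2.78%, 1.61% and 6.31% of probes were. Arrays of treatment and control did not overlap for 7, 4, 7 and 5 members, against 63.1%, 61.5%, 57.0% and 76.4% of probes. The median log2 fold change of the members was 0.38, 0.18, 0.15 and 0.11, beside -0.04, -0.03, 0.01 and -0.02 over all probes.

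The treatments were also set against each other. On the arrays labelled Srf, Fos was 4.23-fold higher than on those labelled Mkl1 (2.08 on the log2 scale, SE 0.13, adjusted p = 4.34e-05), whereas Fosl1 was lower by 1.20 (SE 0.23, adjusted p = 0.0072). Junb was higher by 0.46 (adjusted p = 0.0214) and Jun lower by 0.40 (adjusted p = 0.0235). Jund differed by -0.51 (95% interval -0.89 to -0.14), which missed the threshold (adjusted p = 0.0533) and passed it under 4 of 16 alternatives. In this comparison 25.6% of probes passed, and the Fos difference kept its call when any array was left out, while those of Fosl1, Jun and Junb did not: without Mkl1 replicate 2 their adjusted p-values were 0.0582, 0.144 and 0.0839, and without Srf replicate 1 they were 0.0525, 0.0909 and 0.0799. Without Srf replicate 2, Jun and Junb gave 0.112 and 0.107, and without Mkl1 replicate 1, Junb gave 0.102. Between the hairpins, where 32.1% of probes passed, Fos was 2.28-fold higher in shActb_2 than in shActb_1 (1.19 on the log2 scale, SE 0.13, adjusted p = 0.000904) and Atf3 lower by 0.82 (SE 0.14, adjusted p = 0.00508). Jun differed by 0.28 (95% interval 0.05 to 0.51, adjusted p = 0.0625) and Fosl1 by 0.21 (-0.32 to 0.73). Junb differed by -0.34 (-0.61 to -0.08, adjusted p = 0.0525) and passed under 6 of 16 alternatives.

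**Figure D3:**
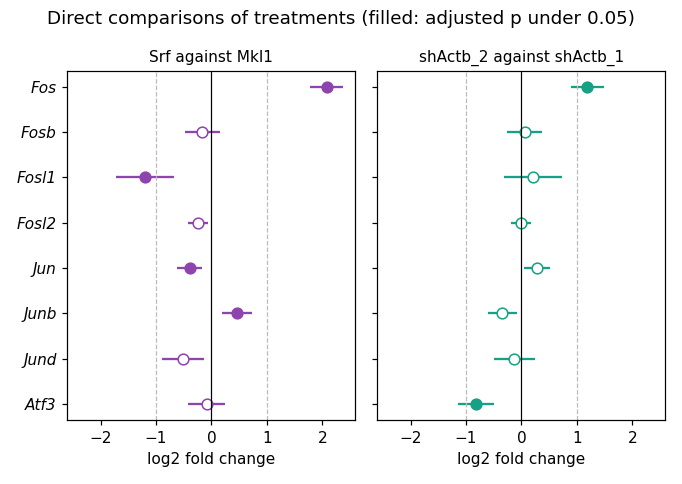
Direct differences between treatments for each AP-1 gene (x axis, log2 fold change with the 95% interval of the limma fit; filled points passed the test). Fos is the highest point in both panels (2.08 and 1.19), Fosl1 lies lowest for Srf against Mkl1 (-1.20) and Atf3 lowest for the second against the first hairpin (-0.82).

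Genes known as AP-1 targets were next described. The list of 21 was drawn from general knowledge, but with earlier results of these data known, so it is not independent of them. On the arrays labelled Srf, 7 of 20 tested targets rose and 7 fell, where 12.9% of all probes rose and 12.5% fell. The 7 that rose include Il6, which was above background on 0 EGFP arrays and was tested only because of the Srf arrays. The 7 that fell include Mmp10, above background on 1 of 2 Srf arrays and tested only because of the EGFP arrays. With Mkl1 9 of 21 rose and 2 fell, beside 12.5% and 8.34% of probes. With shActb_1 6 of 20 rose and 1 fell, beside 5.29% and 4.12%, and with shActb_2 11 of 21 rose and 3 fell, beside 21.7% and 18.6%. The median log2 fold change of the list was 0.19, 0.46, 0.34 and 0.49, beside -0.04, -0.03, 0.01 and -0.02 over all probes. The largest fall and the largest rise of the list in these 4 comparisons were both in the metalloproteinase gene Mmp3. Mmp3 (stromelysin 1) read -4.27 and -4.62 on the arrays labelled Srf against -1.81 and -1.95 in EGFP, a fall of 2.57 on the log2 scale (SE 0.16, adjusted p = 5.11e-05). In shActb_2 it read -2.34 and -2.32 against -4.59 and -4.50 in shEGFP, a rise of 2.22 (SE 0.16, adjusted p = 0.000125). It also fell with Mkl1, by 0.74, and its difference with shActb_1 was 0.18, not past the test. Mmp10 (stromelysin 2) fell by 1.58 on the arrays labelled Srf, where only 1 of 2 arrays was above background, and rose by 1.17 with shActb_1 and by 1.24 with shActb_2. Mmp9, a gelatinase, rose by 1.58 and 1.67 with the first and second hairpin.

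Plaur, the urokinase receptor, rose 3.82-fold with Mkl1 (log2 fold change 1.93, SE 0.21, adjusted p = 0.00129). Its levels there were 4.92 and 5.10 against 2.73 and 3.42 in EGFP, so its control arrays differed as those of Fosl1 did. It also rose by 0.82 on the arrays labelled Srf, by 0.91 with shActb_1 and by 1.20 with shActb_2. Ptgs2, the inducible cyclooxygenase, rose by 1.49 with Mkl1 and by 1.35 with shActb_2, fell by 0.35 on the arrays labelled Srf, and was 1.84 lower on the arrays labelled Srf than on those labelled Mkl1. Its difference with shActb_1 was 0.25, not past the test. Ereg, which encodes the growth factor epiregulin, rose by 1.38 on the arrays labelled Srf, by 1.45 with Mkl1 and by 1.24 with shActb_2. With shActb_1 it differed by 0.30, not past the test. Sphk1, sphingosine kinase 1, fell in all 4 comparisons, by 0.98 on the arrays labelled Srf, 0.64 with Mkl1, 0.64 with shActb_1 and 1.43 with shActb_2.

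**Figure D4:**
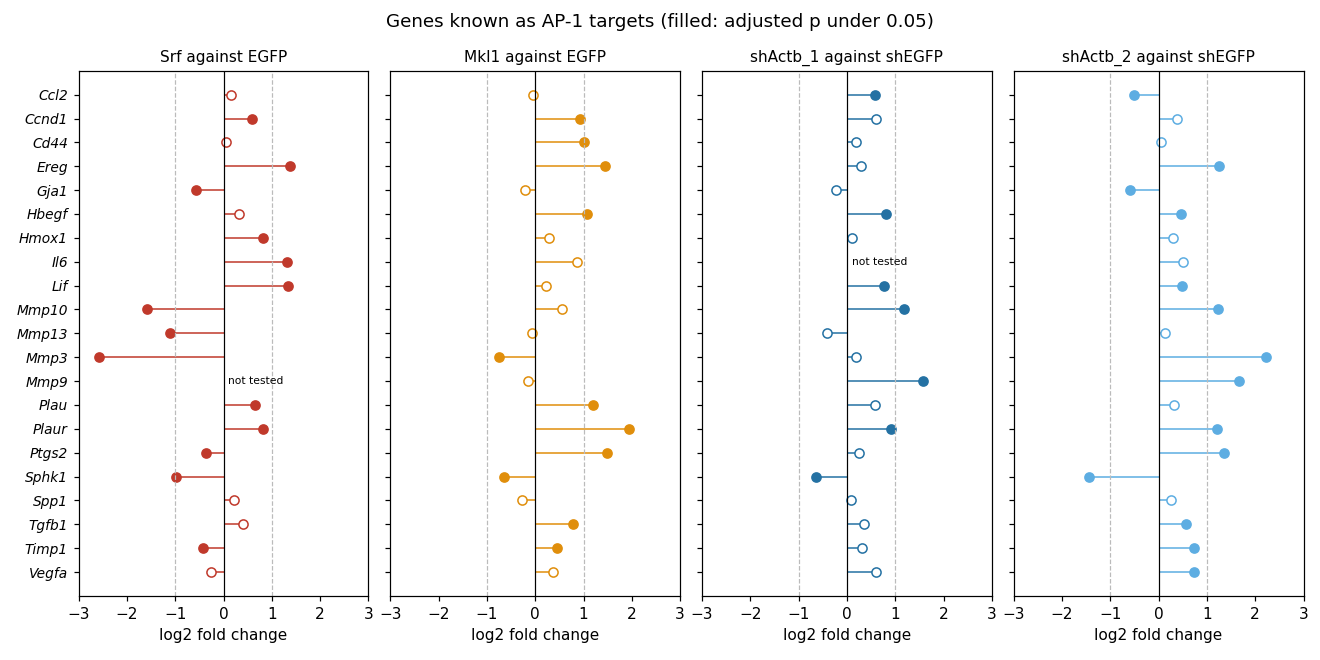
Log2 fold change (x axis) of 21 genes known as AP-1 targets against the control of each experiment; filled points passed the test and dashed lines mark 2-fold. Mmp3 lies far left for Srf (-2.57) and far right for the second hairpin (2.22), and filled points to the right outnumber those to the left in every panel but that of Srf, where 7 lie on each side. The 7 to the right for Srf include Il6, tested only because it was above background on the Srf arrays.

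Genes around AP-1 were counted in the same way. In the order Srf, Mkl1, shActb_1 and shActb_2, the share of all probes was 12.9%, 12.5%, 5.29% and 21.7% higher and 12.5%, 8.34%, 4.12% and 18.6% lower. Of 8 MAP kinase phosphatases, which switch off the kinases that act on AP-1, 6 rose and 1 fell on the arrays labelled Srf, 4 rose with Mkl1, 1 rose and 1 fell with shActb_1, and 4 rose and 1 fell with shActb_2. Dusp5, a phosphatase for ERK, had log2 fold changes of 1.27 on the arrays labelled Srf, 1.31 with Mkl1 and 1.42 with shActb_2, all past the test. With shActb_1 it differed by -0.009, not past the test, and it was 1.43 higher in shActb_2 than in shActb_1 (adjusted p = 0.00225, limma). Dusp2 rose in all 4 comparisons, by 1.12 on the arrays labelled Srf, 0.71 with Mkl1, 0.65 with shActb_1 and 1.16 with shActb_2. Dusp4 rose by 0.61 on the arrays labelled Srf, by 1.02 with Mkl1 and by 1.16 with shActb_2, and differed by 0.48 with shActb_1, not past the test. Of 8 tested partners of AP-1 (Maf and Batf proteins, Atf2 and Jdp2), 4, 2, 1 and 3 rose in the order Srf, Mkl1, shActb_1 and shActb_2, and 0, 1, 0 and 1 fell. Batf3 rose by 1.45 and Maf by 1.06 on the arrays labelled Srf, and Maf by 1.17 with shActb_2. With shActb_1 Maf differed by 0.13, not past the test, and it was 1.045 higher in shActb_2 than in shActb_1 (adjusted p = 0.00162, limma). Of 11 MAP kinases upstream of AP-1, 2, 4, 1 and 6 rose and 2, 0, 1 and 0 fell, so that on the arrays labelled Srf the list lay near the share of all probes. Mapk10, a neuronal Jun kinase, was the one over 2-fold, higher by 1.21 on the arrays labelled Srf.

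Other lists differed between the same groups to some extent, and their part in the results above was not tested. Integrated stress response genes, to which Atf3 is related, had a summed signal (in units of the array's 75th percentile) of 626 to 643 in shEGFP, 742 to 792 in shActb_1 and 538 to 595 in shActb_2. With shActb_1 the lowest adjusted p among the 10 was 0.0753 (limma), and with shActb_2 2 fell, near the 18.6% of probes that did. On the arrays labelled Srf it was 279 to 320 against 434 to 502 in EGFP. There 6 of 10 fell, beside 12.5% of probes, with Trib3 lower by 1.86 and Chac1 by 1.35, while Atf3 differed by 0.01. Of 6 heat shock genes all rose with shActb_2, beside 21.7% of probes. With Mkl1 3 of the 6 rose, beside 12.5% of probes. For Srf 2 were higher and 1 lower past the test, beside 12.9% and 12.5% of probes. Hspa1a rose by 1.16 with shActb_2 and by 0.33 with Mkl1, and fell by 0.47 on the arrays labelled Srf, where Hspb1 rose by 0.67 and Hsph1 by 0.31. Fibroblast markers (5 of 6 above background on all arrays) summed to 171 to 172 in EGFP, 98.5 to 102 on the arrays labelled Srf and 99.9 to 120 on those labelled Mkl1, and to 135 to 144, 103 to 114 and 80.7 to 83.8 in shEGFP, shActb_1 and shActb_2. On the arrays labelled Srf the list was split: Col1a2 fell 2.14-fold and Col3a1 by 0.84 on the log2 scale, whereas Dcn rose by 0.85 and Lum was at least 11.8-fold higher (adjusted p = 7.58e-05), not well above background on either EGFP array and so tested only because of the Srf arrays, and the median over 6 genes was 0.32. Microglia and macrophage markers summed to 14.7 to 15.5 on the arrays labelled Srf, where Fos was highest, and to 8.74 to 12.4 on the others. Of the 5 tested there, Csf1r, Cd68 and Itgam rose by 1.44, 1.12 and 0.55, Aif1 fell by 1.29, and Ptprc differed by -0.29, not past the test. Of all probes 12.9% were higher and 12.5% lower there. Astrocyte markers (3 of 5 above background on all arrays) summed to 5.70 to 6.63 in EGFP, 7.50 to 7.89 on the arrays labelled Srf and 3.32 to 3.96 on those labelled Mkl1, and to 6.71 to 7.04, 3.19 to 3.32 and 3.61 to 3.94 in shEGFP, shActb_1 and shActb_2. Of 4 tested on the arrays labelled Srf only Aldh1l1 rose, by 0.78, beside 12.9% of probes. Slc1a3, Gfap and Aqp4 differed there by -0.19, -0.31 and -0.375, not past the test, and the median over the 4 was -0.25. Of 9 tested neural progenitor markers, 3, 2, 0 and 4 rose and 1, 2, 2 and 1 fell in the order Srf, Mkl1, shActb_1 and shActb_2. Of all probes 12.9%, 12.5%, 5.29% and 21.7% were higher and 12.5%, 8.34%, 4.12% and 18.6% lower in that order. Sox2 fell by 1.05 on the arrays labelled Srf, 0.89 with Mkl1 and 1.01 with shActb_1, Fabp7 fell by 1.27 with shActb_1 and 0.66 with Mkl1 and rose by 0.93 on the arrays labelled Srf, and Sox9 rose by 0.82 there, 1.03 with Mkl1 and 1.02 with shActb_2. Their sum, in which Vim was the brightest, was 277 to 295 in EGFP, 257 to 266 on the arrays labelled Srf and 323 to 337 on those labelled Mkl1, and 251 to 255, 273 to 276 and 364 to 367 in shEGFP, shActb_1 and shActb_2. Neuron markers (5 of 7) summed to 14.8 to 17.6 on the control arrays and 10.0 to 12.8 on all treated arrays, and Stmn2, a neuronal stathmin, fell by 3.88 on the arrays labelled Srf, 1.46 with Mkl1, 1.41 with shActb_1 and 1.29 with shActb_2. On the arrays labelled Srf 2 of 6 tested neuron markers fell, Map2 by 0.87 besides Stmn2, and 2 rose, Tubb3 by 1.53 and Snap25 by 0.54. Of all probes 12.5% fell and 12.9% rose there. With Mkl1, shActb_1 and shActb_2 0 rose, and 2 of 6, 2 of 7 and 3 of 7 fell, beside 8.34%, 4.12% and 18.6% of probes. In such bulk samples, fewer cells with a transcript and less of it per cell cannot be told apart.

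Over the 12 arrays, the genes whose pattern was most like that of each member were sought among 13924 named genes by Pearson's r, as a description. For Fos they were Lor (r = 0.982), Bmper (0.981) and Proc (0.973), and Lor, the cornified envelope gene loricrin, averaged 2.56 on the arrays labelled Srf, -0.11 in EGFP and -1.21 in shActb_1. For Fosl1 they were Map2k3os (0.995), Lrrc59 (0.984) and Plaur (0.984), the last of which is also on the list of AP-1 targets. For Jun they were Wdr46 (0.978), Slc35c1 (0.970) and Ehbp1l1 (0.970), and for Atf3 Ovol2 (0.984), Med13 (0.979) and D830030K20Rik (0.978). For the members that moved less, the highest values were 0.963 for Junb with Gm10432, 0.960 for Fosl2 with Atp6v0a4, 0.935 for Fosb with Hira and 0.928 for Jund with Clip2. The points share slides and groups of 2 arrays, so few of them are independent.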

How the data were processed

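Total RNA was labelled with cyanine 3 and hybridized to 12 1-colour Agilent mouse arrays of 62976 features, which is the size of the array named in the study's methods and not of that in the labels. The authors quantified scans with Feature Extraction 11.5.1.1 and deposited a processed signal intensity per spot, background-subtracted and not normalized between arrays. They also deposited a log2 table of percentile-shifted values, which lay within 0.01 of log2 scanner values after a constant per array was removed. Low-signal data were excluded in GeneSpring by the authors, and no test is named for the arrays in the sources used here.

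From the intensity, log2 was taken, control and outlier spots were left out, spots of a probe were averaged and the array's 75th percentile was subtracted. Accessions were matched to GRCm38.p6 RefSeq names for 28026 of 55681 probes (50.3%); the array design used another build, so no probe coordinates are given. One limma 3.58.1 model (lmFit, eBayes, R 4.3.3, two-sided) with a mean per group covered all 12 arrays. A probe entered a test if all arrays of either compared group showed it well above background, and passed at a Benjamini-Hochberg adjusted p under 0.05. A gene was counted by its brightest probe. "Rose" and "fell" denote passing the test. The fit was tested on simulated data. The number of arrays limits the precision.

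Members and lists were chosen with earlier results of these data known. Named were all members, the targeted genes, up to 3 genes per list and comparison with the largest change past the test and over 2-fold, and the 3 genes most like each member (for the 4 members that moved less, only the first is printed). Other marker and heat shock genes with smaller changes, or not past the test, were chosen after their values were seen, to show where a list was split. Oligodendrocyte markers (5 of 5 above background on all arrays) summed to 11.6 to 28.9 over the arrays, the widest pair being EGFP (14.3 and 28.9), and pluripotency markers (4 of 6) to 2.93 to 5.16, highest on the arrays labelled Srf (4.69 and 5.16). The pluripotency list was split there: Esrrb rose by 2.53 and Dppa5a by 0.46, whereas Klf4 fell by 0.71. Pou5f1, Zfp42 and Nanog differed by -0.34, -0.13 and 0.12, not past the test, and the median over 6 genes was -0.002. Alternatives were the normexp correction (offset 50, on median spot signals where means had been planned), quantile normalization, the deposited table, another percentile, 2 other filters, fewer arrays in the fit, the replicate number as a block, a variance trend, a fold threshold, other probe rules and each array left out.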

Additional observations from a re-analysis of the deposited data

Results flagged for a closer look

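Fos and Atf3 differed between the hairpins against the same gene. Fos was 1.19 higher on the log2 scale in shActb_2 than in shActb_1 (adjusted p = 0.000904, limma), with -3.02 and -3.14 against -4.39 and -4.16 on the arrays. With the normexp background correction the difference was 0.60, and it kept its call in all 16 alternatives tried. Atf3 was lower by 0.82 (adjusted p = 0.00508), with -0.49 and -0.29 against 0.35 and 0.50, and lost its call with a fold threshold of 2 and under none of the other alternatives. The hairpins lay on different slides, so slide and hairpin cannot be told apart for either gene. Groups of 2 arrays are too small for a search for outlying arrays.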

How the results depend on the processing

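Of 774 alternatives for single members, 669 kept direction and side of the threshold, 56 lost the call, 26 gained it and 23 turned the sign. With the fit restricted to the compared arrays, the members past the test numbered 2 for Srf against EGFP, 0 for Mkl1 against EGFP and 1 for shActb_1 against shEGFP. Calls over all probes dropped too, to 2346, 126 and 1231 in that order, from 9052, 7438 and 3410 in the main fit. With the arrays of the compared slides the members numbered 2 for Srf against EGFP, 1 for shActb_1 against shEGFP and 1 for Srf against Mkl1. Of all probes 5351, 1231 and 4964 then passed, where the main fit called 9052, 3410 and 9151. With a fold over 2 the members numbered 1 for Srf against EGFP, 0 for shActb_1 and 2 for shActb_2 against shEGFP, 2 for Srf against Mkl1 and 1 between the hairpins. That threshold left 1970, 582, 2283, 1787 and 1782 of all probes. Without a filter on dim probes 2 members passed for Srf against Mkl1, beside 6536 of all probes (9151 in the main fit). With a variance trend 4 members passed between the hairpins, beside 12648 of all probes (11371 in the main fit). Leaving out 1 array gave 2 (without Srf replicate 2) to 5 for Srf against EGFP, 2 to 4 (without EGFP replicate 2) for Mkl1 against EGFP, 2 to 4 for shActb_2 against shEGFP (2 without shEGFP replicate 1 or shActb_2 replicate 2) and 1 to 3 for Srf against Mkl1 (1 without Mkl1 replicate 2 or Srf replicate 1, 2 without Srf replicate 2). The causes were not tested.

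No value that turned its sign was past the test under the alternative. For Atf3, Srf against EGFP became -0.0041 with quantile normalization and ran from -0.20 (without EGFP replicate 1) to 0.21 with 1 array left out, being -0.072 without Srf replicate 2. Srf against Mkl1 became 0.0065 for Atf3 with the percentile over probes above background on all arrays. With 1 array left out, the Mkl1 values ran from -0.19 to 0.0019 for Fosl2, from -0.048 to 0.33 for Junb, from -0.044 to 0.49 for Jund and from -0.11 to 0.29 for Atf3, the turned sign being that without EGFP replicate 1. The other Fosl2 probe gave 0.14 with shActb_1, 0.21 with shActb_2 and 0.067 between the hairpins. For shActb_2, Junb became 0.016 with normexp and 0.044 with quantile normalization, and Jund -0.17 with quantile normalization and -0.098 with the other percentile, and from -0.064 (without shEGFP replicate 2) to 0.13 with 1 array left out. Fosb ran from -0.37 to 0.043 (without Mkl1 replicate 2) for Srf against Mkl1, and between the hairpins became -0.000888 with normexp and -0.0042 with the other percentile. Fosl2 between the hairpins became 0.000776 with normexp and 0.028 with the mean over probes, and ran from -0.075 to 0.053 (without shActb_1 replicate 1), being 0.023 without shActb_2 replicate 2. The median over all probes moved by over 0.1 with the other percentile for shActb_2 (-0.13) and without the filter for Srf (-0.11) and Mkl1 (-0.10).

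Replicate numbers are shared between groups, but nothing ties equal numbers to a batch, and the differences between replicates correlated at -0.138 to 0.261 between groups. With the replicate number as a block, 4, 2, 4, 4, 5 and 2 members passed in the 6 comparisons: Fosl1 was gained with shActb_1 (0.81, adjusted p = 0.0325) and Fosl2 for Srf against Mkl1 (-0.25, adjusted p = 0.0366). All member probes were above background on all arrays, but Fos was dim and its size depended on the background correction.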
